A study of Mus musculus with 16 samples.

Results

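Pla2g5, the gene of a secreted phospholipase A2, was described in the medial prefrontal cortex (mPFC) of 16 mice together with 7 other phospholipase A2 genes, Pla2g4a, Pla2g4b, Pla2g6, Pla2g7, Pla2g12a, Pla2g15 and Pla2g16. These 8 genes were found by symbol among the 26625 entries of the deposited gene table. Pla2g5 was chosen by a measured value, its level after Kdm7a knockdown in mice given morphine, so that comparison and those that share its mice are given as a description, without a test. The other 7 genes were set beside it by family.

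Male C57BL/6 mice aged 8 to 10 weeks received a virus in the mPFC on both sides, were conditioned with saline or with 10 mg/kg morphine, and were sampled on day 7 of withdrawal after a second place preference test. The virus of the Kdm7a-shRNA groups carried a short hairpin RNA against Kdm7a, a histone lysine demethylase, and that of the Ctrl groups carried a control hairpin, both with a green fluorescent protein. The hairpins were driven by the U6 promoter, which is not restricted to a cell type, and the hairpin against Kdm7a was 1 construct, so an effect of lower Kdm7a and another effect of that virus cannot be told apart. With saline there were 3 mice with the control hairpin (Ctrl + Saline) and 5 with the Kdm7a hairpin (Kdm7a-shRNA + Saline), and with morphine 4 of each (Ctrl + Morphine and Kdm7a-shRNA + Morphine).

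Phospholipases A2 cut a fatty acid from the second position of a glycerophospholipid and leave a lysophospholipid. Where the fatty acid is arachidonic acid, it feeds the synthesis of prostaglandins, thromboxanes and leukotrienes. The family holds small secreted enzymes that need calcium, cytosolic enzymes that move to membranes when calcium rises, calcium-independent enzymes, hydrolases of platelet-activating factor and lysosomal enzymes. In the brain these enzymes take part in membrane turnover and in the making of lipid mediators by neurons, glia and vessels.

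The number of counted reads per mouse was 6596991 to 12418112. Levels are given as normalized CPM, the counts of a gene scaled to a common total per mouse after correction of the library size with TMM factors. These factors were 1.02 to 1.07 in the Ctrl mice and 0.913 to 0.991 in the Kdm7a-shRNA mice. Log2 fold changes with knockdown are therefore higher than with library size alone. A gene passed a comparison with an adjusted p under 0.05 in edgeR's quasi-likelihood test over the 18826 genes with enough counts and a fold change of at least 1.5. Of the 18826, 14444 were annotated genes and 4382 assembled loci, so shares of all tested genes include loci outside the named lists. With 1 mouse left out, 568 to 2066 genes in place of 1448 passed with knockdown under morphine, and 1424 to 3730 in place of 3151 under saline. Under morphine the lowest numbers were 568 without replicate 3 of Kdm7a-shRNA + Morphine and 578 without replicate 4 of Ctrl + Morphine. The lowest under saline was that without replicate 3 of Ctrl + Saline. Reads were from whole tissue, so a change in the number of cells of a type and a change in the RNA per cell cannot be told apart.

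Pla2g5 (ENSMUSG00000041193) lies on the minus strand of chromosome 4 at chr4:138799244-138863482 of GRCm38, with 9 annotated transcripts. Its body overlaps Pla2g2a, annotated as a polymorphic pseudogene on the opposite strand, and the small nuclear RNA Gm25280, and neither was an entry of the table. RefSeq lists 2 start sites for Pla2g5. Their promoter windows, from 250 bases before to 50 after the start, are shown because Pla2g5 changed most among these genes, beside those of Pla2g7 and of the outer start of Pla2g4a, the other members that passed a comparison. Capitals mark CG pairs, and all are read 5′ to 3′ on the strand of the gene.
Pla2g5 outer start, chr4:138863420-138863719, minus strand: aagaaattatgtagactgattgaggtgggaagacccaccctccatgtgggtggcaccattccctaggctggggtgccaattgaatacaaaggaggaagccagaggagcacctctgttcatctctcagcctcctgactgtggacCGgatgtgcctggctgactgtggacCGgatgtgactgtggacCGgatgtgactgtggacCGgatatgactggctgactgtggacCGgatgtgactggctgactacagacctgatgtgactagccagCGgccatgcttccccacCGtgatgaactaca
Pla2g5 inner start, chr4:138819208-138819507, minus strand: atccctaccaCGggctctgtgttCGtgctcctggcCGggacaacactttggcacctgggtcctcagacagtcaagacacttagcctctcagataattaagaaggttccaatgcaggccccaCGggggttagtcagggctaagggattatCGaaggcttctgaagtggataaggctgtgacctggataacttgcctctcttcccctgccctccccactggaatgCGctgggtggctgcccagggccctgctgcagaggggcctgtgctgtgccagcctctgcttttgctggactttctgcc
Pla2g7, chr17:43568201-43568500, plus strand: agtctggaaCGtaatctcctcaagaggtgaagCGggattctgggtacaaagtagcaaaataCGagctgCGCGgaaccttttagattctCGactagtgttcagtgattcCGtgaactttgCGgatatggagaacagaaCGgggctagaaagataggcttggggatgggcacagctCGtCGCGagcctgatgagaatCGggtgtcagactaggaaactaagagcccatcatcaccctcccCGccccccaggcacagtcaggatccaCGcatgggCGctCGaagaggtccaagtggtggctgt
Pla2g4a outer start, chr1:149961241-149961540, minus strand: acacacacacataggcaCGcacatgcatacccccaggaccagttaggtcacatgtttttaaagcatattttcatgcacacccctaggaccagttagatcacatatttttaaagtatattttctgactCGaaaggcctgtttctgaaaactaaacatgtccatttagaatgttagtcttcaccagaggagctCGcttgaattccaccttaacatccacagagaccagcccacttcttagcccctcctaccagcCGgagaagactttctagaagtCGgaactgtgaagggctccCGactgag

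The outer and the inner Pla2g5 windows held 7 and 6 CG pairs, and the median over the 32851 RefSeq windows of the same length was 7. The Pla2g7 window held 17 CG pairs and the outer Pla2g4a window 6. Among the other members, the windows of Pla2g6 and Pla2g15 held 19 each and that of Pla2g12a held 4, and the 2 windows of Pla2g16, listed there as Plaat3, held 9 and 11. The outer Pla2g5 window contains the unit TGACTGTGGACCGGAT 5 times on the strand of the gene, and no other of the 32851 windows contains it on that strand or the other. The unit was picked from this window, as its longest string with at least 5 copies, so its absence from the other windows says little. Other motifs were searched for on both strands. The amino acid response element TGATGNAA was in 3.97% of all windows, the cyclic AMP response element TGACGTCA in 1.79% and the TATA box TATAAA in 13.6%. None of these letters were found in either Pla2g5 window, and among the members TATAAA alone was found, in the inner window of Pla2g4a.

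Kdm7a, the targeted gene, was lower in the mice with the Kdm7a-shRNA virus, from 9.42 ± 0.353 to 5.55 ± 0.571 normalized CPM under saline (SD, n = 3 and 5) and from 7.72 ± 1.13 to 4.94 ± 1.53 under morphine (n = 4 and 4). Under saline it passed, with a log2 fold change of -0.76 (SE 0.204, adjusted p 0.0153), and all 5 knockdown mice were below all 3 Ctrl mice. Under morphine the log2 fold change was -0.67 (SE 0.206, adjusted p 0.0506), it did not pass, and the groups overlapped. Averaged over both treatments, with all 16 mice, Kdm7a passed by edgeR at -0.71 (SE 0.145, adjusted p 0.00154). The knockdown effect under morphine minus that under saline was 0.10 (SE 0.293). The counts were low, 35 to 93 per mouse.

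Pla2g5 was higher in all 9 Kdm7a-shRNA mice than in all 7 Ctrl mice. Over the 18826 tested genes, 1.86% were higher without overlap in this way. The morphine mice in this count are those by which Pla2g5 was chosen, so the count is a description. Between the saline groups alone, 11.1% of all tested genes were higher without overlap. In the Ctrl + Saline mice its normalized CPM was 5.15, 3.71 and 2.25, and in the Kdm7a-shRNA + Saline mice it was 11.8, 24.1, 28, 15.4 and 19.8. In the Ctrl + Morphine mice it was 2.70, 3.95, 2.68 and 2.14, and in the Kdm7a-shRNA + Morphine mice 20.5, 15.8, 26.6 and 11.7. The lowest knockdown mouse, at 11.7, was above the highest Ctrl mouse, at 5.15, and the spread within each knockdown group was wide. Behind these levels were 17 to 39 reads per mouse in the Ctrl groups and 87 to 310 in the Kdm7a-shRNA groups.

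Under saline Pla2g5 rose 5.33-fold (log2 fold change 2.41, SE 0.342, 95% interval 1.69 to 3.13, adjusted p 0.000345, edgeR's quasi-likelihood test). It was number 80 of the 18826 genes in order of p. The gene was chosen by its level in morphine mice, but the tests were chosen with earlier results of these data known. The saline test is therefore not independent of them. Its fit also used the mice of all groups. A quasi-likelihood fit of the saline groups alone gave 2.40 (SE 0.326, adjusted p 0.000878). Under morphine, the comparison that picked it, the log2 fold change was 2.70 (SE 0.321, interval 2.03 to 3.38), a 6.51-fold difference. The knockdown effect under morphine minus that under saline was 0.29 on the log2 scale (SE 0.458, interval -0.67 to 1.25), so that differences between the treatments of up to 2.38-fold lie within the interval. Leaving out any 1 mouse kept the log2 fold change between 2.14 and 2.66 under saline and between 2.47 and 2.9 under morphine.

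**Figure D1:**
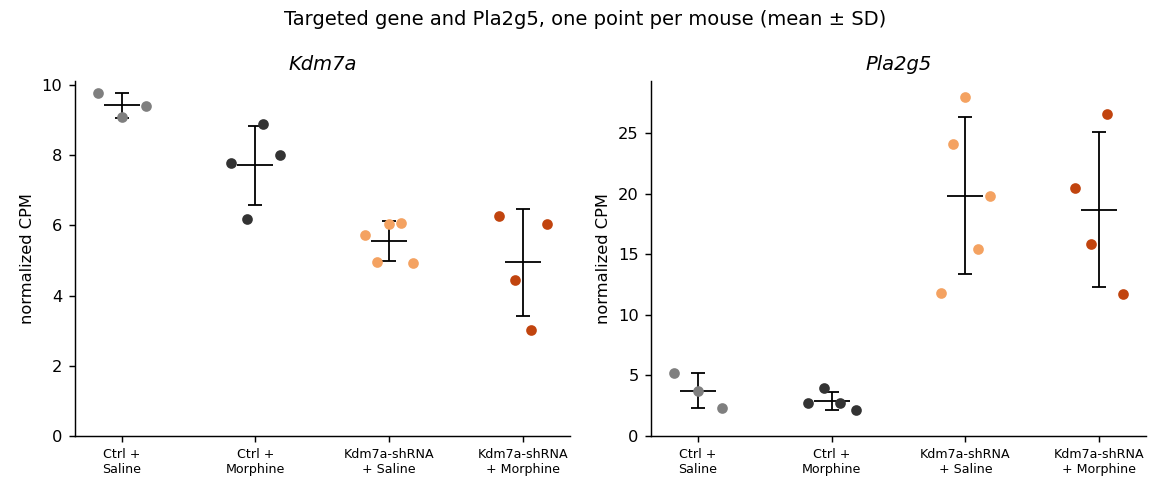
Normalized CPM (vertical axes, from 0) of Kdm7a and Pla2g5 in each mouse of the 4 groups, 1 point per mouse, with the mean and SD of the group as bar and whiskers. Kdm7a means were 9.42 and 7.72 in the Ctrl groups and 5.55 and 4.94 in the Kdm7a-shRNA groups, and every Kdm7a-shRNA mouse had more Pla2g5 than any Ctrl mouse.

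Of the 8 genes, 7 had enough reads to be tested. With knockdown under saline, Pla2g5 and Pla2g7 passed, both higher. Among all tested genes, 16.7% passed in this comparison, and 7.43% passed with a higher level. With knockdown under morphine, 0 of the 6 tested genes other than Pla2g5 passed, against 7.69% of all tested genes (2.86% with a higher level), by edgeR's quasi-likelihood test. In that comparison 1 of the 6, Pla2g4a, had an unadjusted p under 0.05, against 25.5% of all genes, and 0 passed by DESeq2. The 6 genes had a median log2 fold change of 0.35 under morphine and 0.37 under saline, where the median of all tested genes was 0 and 0.01.

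Pla2g12a encodes a small secreted enzyme of group XII. Its normalized CPM was 3.61 to 5.29 in Ctrl + Saline, 4.27 to 5.78 in Ctrl + Morphine, 4.52 to 6.04 in Kdm7a-shRNA + Saline and 3.22 to 5.58 in Kdm7a-shRNA + Morphine. All 4 ranges overlapped. The log2 fold change with knockdown was 0.31 under saline (SE 0.218, adjusted p 0.332) and -0.23 under morphine (SE 0.207, adjusted p 0.532). The interval of Pla2g12a under saline ended at 1.70-fold and that of Pla2g5 began at 3.24-fold.

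Pla2g4a encodes the cytosolic enzyme that prefers phospholipids with arachidonic acid. Its normalized CPM was 5.68, 3.12 and 3.05 in the Ctrl + Saline mice and 3.79, 6.45, 9.48, 3.82 and 7.24 in the Kdm7a-shRNA + Saline mice. It was 3.49, 3.20, 3.29 and 3.0 in the Ctrl + Morphine mice and 4.29, 5.88, 8.25 and 3.35 in the Kdm7a-shRNA + Morphine mice. In both treatments the highest levels were in knockdown mice, 3 in each group, while the lowest knockdown mice were within the Ctrl range. The log2 fold change was 0.65 under saline (SE 0.336, adjusted p 0.182) and 0.77 under morphine (SE 0.325, adjusted p 0.146), and neither passed.

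Over both treatments, the knockdown effect on Pla2g4a averaged 0.71 on the log2 scale (SE 0.234, adjusted p 0.0312) and passed. In this average, which uses all 16 mice, 2 of the 6 tested members other than Pla2g5 passed, Pla2g4a and Pla2g7, against 17.6% of all genes, 7.68% with a higher level. The call of Pla2g4a was lost in 7 of 16 fits with 1 mouse removed, those without replicates 3 or 4 of Ctrl + Morphine, 2 or 3 of Ctrl + Saline, 3 of Kdm7a-shRNA + Morphine, and 3 or 5 of Kdm7a-shRNA + Saline.

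Pla2g4b, a second cytosolic enzyme, had 1 to 10 reads per mouse and 78 in all, and was not tested. Its mean level was 0.448 ± 0.214 normalized CPM in Ctrl + Saline, 0.765 ± 0.248 in Ctrl + Morphine, 0.458 ± 0.330 in Kdm7a-shRNA + Saline and 0.499 ± 0.227 in Kdm7a-shRNA + Morphine (SD). Pla2g4b (chr2:120033417-120043030, plus strand, GRCm38) follows Jmjd7 (chr2:120027483-120032594), which encodes a JmjC domain protein, and the entry Gm28042 overlaps both genes on the same strand. Gm28042 took 56 to 117 reads per mouse and Jmjd7 8 to 27, so how the reads of this locus were divided between the 3 entries is uncertain. Jmjd7 was not called under saline (log2 fold change 0.47, SE 0.333, adjusted p 0.331) or under morphine (0.81, SE 0.308, adjusted p 0.106). In the average over both treatments it passed by edgeR (0.64, SE 0.227, adjusted p 0.0429), with overlapping groups, beside 7.68% of all genes that passed as higher.

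Pla2g6 encodes a calcium-independent enzyme, mutated in an inherited neurodegeneration with brain iron accumulation. Its mean level was 15.2 ± 2.07 normalized CPM in Ctrl + Saline, 17.0 ± 2.55 in Kdm7a-shRNA + Saline, 16.5 ± 4.21 in Ctrl + Morphine and 21.0 ± 2.07 in Kdm7a-shRNA + Morphine. The log2 fold change with knockdown was 0.16 under saline (SE 0.183, adjusted p 0.571) and 0.34 under morphine (SE 0.174, adjusted p 0.230). Its interval under saline, 0.856 to 1.46-fold, excluded a rise of the size seen for Pla2g5.

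Pla2g7 encodes the secreted hydrolase that inactivates platelet-activating factor, and it was the most abundant member. Its normalized CPM was 85.5, 87.0 and 121 in the Ctrl + Saline mice and 138, 189, 260, 97.3 and 165 in the Kdm7a-shRNA + Saline mice. It was 116, 82.4, 106 and 104 in the Ctrl + Morphine mice and 131, 123, 191 and 87.6 in the Kdm7a-shRNA + Morphine mice. Under each treatment 1 knockdown mouse, replicate 4, was within the Ctrl range and the rest were above it.

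Under saline Pla2g7 rose 1.74-fold (log2 fold change 0.80, SE 0.265, interval 0.24 to 1.35, adjusted p 0.0419), and over both treatments its log2 fold change was 0.59 (SE 0.182, adjusted p 0.0214), which passed too. Under morphine it was 0.39 (SE 0.250, adjusted p 0.357), and the difference between the treatments was -0.41 (SE 0.361, adjusted p 0.752). The saline call was lost without any 1 of the Ctrl + Saline replicates 1, 2 and 3, where the log2 fold change was 0.66, 0.72 and 0.95, and without replicates 2, 3 and 5 of Kdm7a-shRNA + Saline, where it was 0.76, 0.59 and 0.81, with adjusted p between 0.0616 and 0.141. It was lost as well with library sizes alone (0.65, adjusted p 0.0728), with annotated genes only (0.71, adjusted p 0.0825) and in a fit of the 2 groups (0.77, adjusted p 0.0540). The averaged call was lost in 6 of 16 such fits, those without replicate 2 of Ctrl + Morphine, 1 or 2 of Ctrl + Saline, 3 of Kdm7a-shRNA + Morphine, and 2 or 3 of Kdm7a-shRNA + Saline.

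Pla2g15 encodes the lysosomal phospholipase A2. Its normalized CPM was 20.2, 15.9 and 18.8 in the Ctrl + Saline mice and 20.9, 23.4, 32.1, 22.3 and 24 in the Kdm7a-shRNA + Saline mice, and these groups did not overlap. Under saline, 11.1% of all tested genes were higher without overlap. The log2 fold change was 0.42 (SE 0.244, adjusted p 0.231) and did not pass. Under morphine the levels were 24.8, 13.1, 20.1 and 20.4 in the Ctrl mice and 22.1, 16.1, 36.1 and 17.7 in the knockdown mice. There the log2 fold change was 0.24 (SE 0.232, adjusted p 0.565), and it was -0.08 without replicate 3 of Kdm7a-shRNA + Morphine, the mouse at 36.1.

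Pla2g16 encodes an enzyme with phospholipase A and acyltransferase activity that is abundant in adipose tissue. Its mean level was 31.1 ± 6.39 normalized CPM in Ctrl + Saline, 38.7 ± 12.1 in Kdm7a-shRNA + Saline, 25.9 ± 6.74 in Ctrl + Morphine and 33.2 ± 7.18 in Kdm7a-shRNA + Morphine. The ranges overlapped in both treatments, with the Kdm7a-shRNA + Saline mice from 26.1 to 51.6. The log2 fold change was 0.32 under saline (SE 0.248, adjusted p 0.387) and 0.36 under morphine (SE 0.239, adjusted p 0.375).

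**Figure D2:**
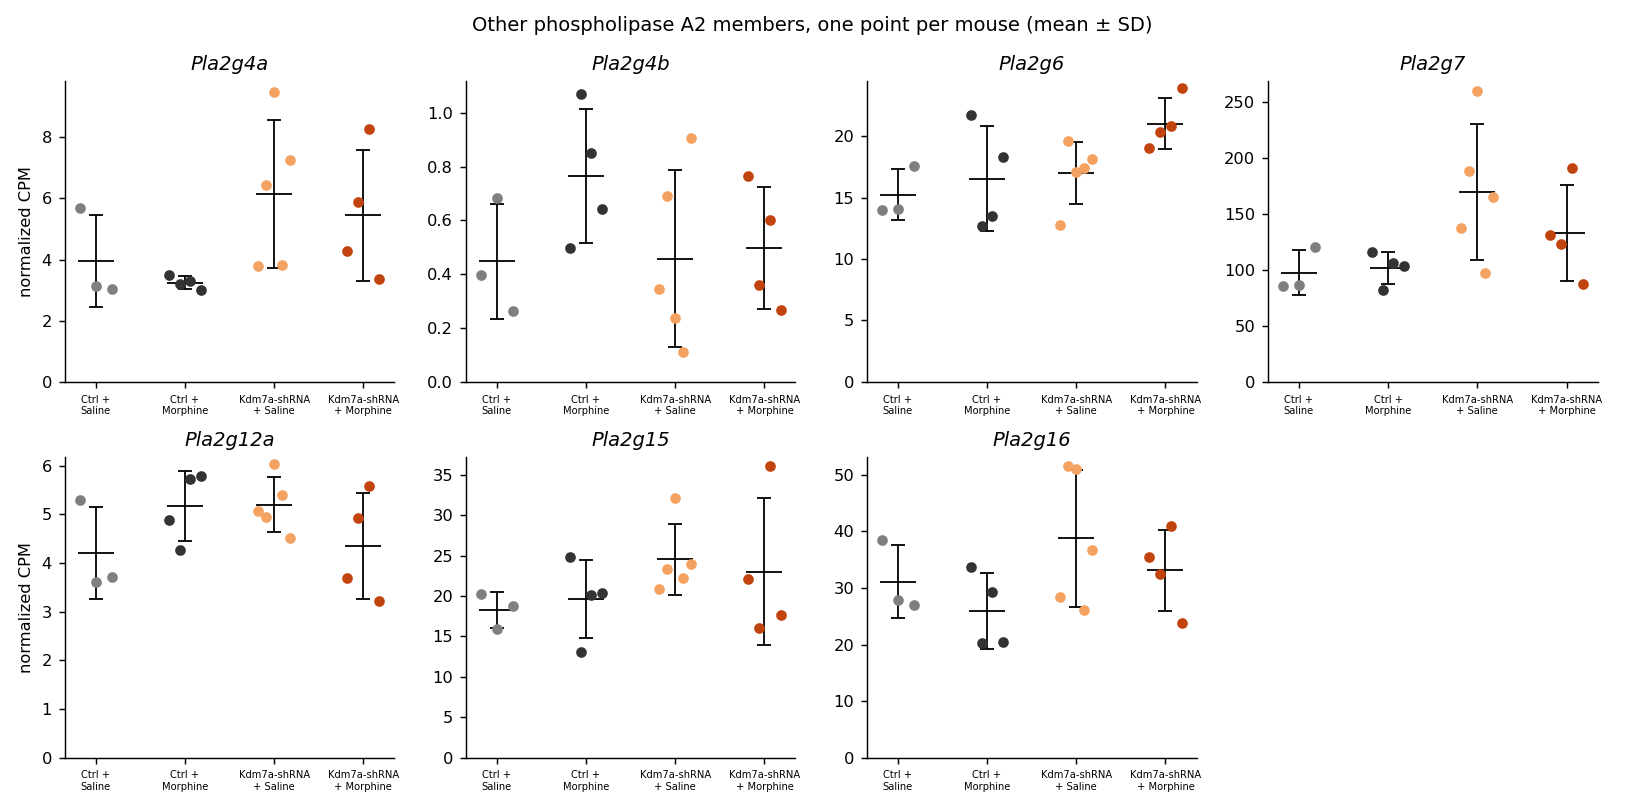
Normalized CPM (vertical axes, from 0, a scale for each gene) of the 7 members other than Pla2g5 in each mouse of the 4 groups, with group mean and SD. Ctrl and Kdm7a-shRNA ranges overlap in both treatments for all but Pla2g15 under saline, and the highest Pla2g4a, Pla2g7 and Pla2g15 levels under saline, 9.48, 260 and 32.1, are from the same mouse, replicate 3 of Kdm7a-shRNA + Saline.

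The rise of Pla2g5 under saline was compared with that of each other tested member within each mouse, as the log2 ratio of both levels. The ratio was higher with knockdown by 1.69 for Pla2g7, 1.82 for Pla2g4a, 2.02 for Pla2g15, 2.11 for Pla2g12a, 2.16 for Pla2g16 and 2.28 for Pla2g6. For all 6 members the ratio was higher in each of the 5 Kdm7a-shRNA + Saline mice than in each of the 3 Ctrl + Saline mice. A two-sided exact permutation test gave p = 0.0357 for each, also after Benjamini-Hochberg adjustment over the 6, which is the smallest value that 3 against 5 mice allow. This test was chosen after the levels had been seen. All 6 ratios share the Pla2g5 level, which itself did not overlap between these groups. The 6 p-values are therefore not separate evidence on 6 members. They say little beyond the separation of Pla2g5 itself, and no conclusion is drawn from them.

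**Figure D3:**
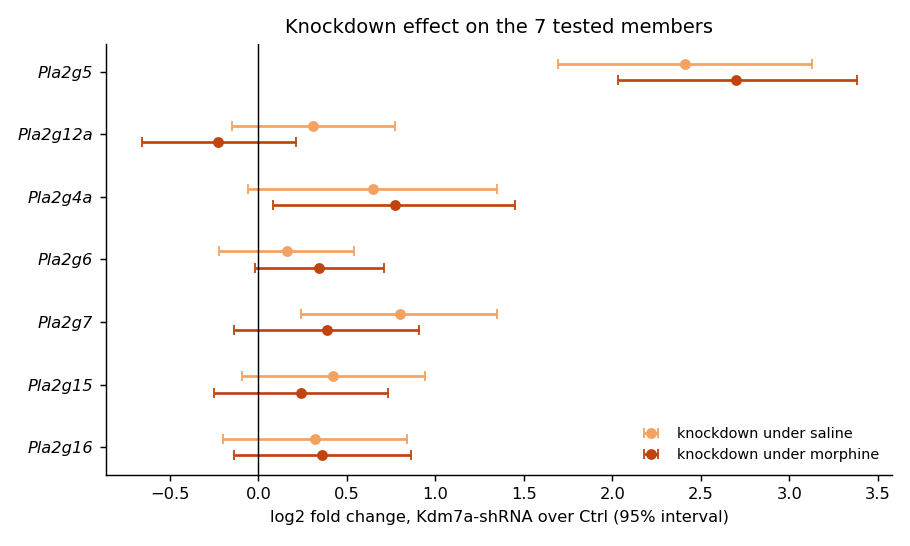
Log2 fold change of Kdm7a-shRNA over Ctrl mice (horizontal axis) for the 7 tested members under saline and under morphine, with the 95% interval from edgeR's quasi-likelihood fit. The Pla2g5 intervals, 1.69 to 3.13 and 2.03 to 3.38, lie above those of the other 6 genes, of which Pla2g4a reaches highest, to 1.45 under morphine.

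Morphine withdrawal did not give a call for any of the 7 tested members. Under the control virus, 0 members and 0% of all genes passed by edgeR, with 11.7% of all genes at an unadjusted p under 0.05. None of the members was among these. Of the 6 members other than Pla2g5, 0 passed by DESeq2, which called 185 genes. Without replicate 1 of Ctrl + Saline, 230 genes passed by edgeR, 207 of them higher, and 0 of these 6 members. Pla2g5 in the Ctrl mice was 3.70 ± 1.45 normalized CPM under saline and 2.87 ± 0.767 under morphine, a log2 fold change of -0.37 (SE 0.376, interval -1.16 to 0.42). Under the Kdm7a-shRNA virus 0 members and 0.00531% of all genes passed, and Pla2g5 differed by -0.08 (SE 0.264, interval -0.64 to 0.48). None of the members passed in the difference of the knockdown effects either, where 0.085% of all genes did. The largest such difference was that of Pla2g12a, at -0.54 (SE 0.300, adjusted p 0.553).

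Levels of different members were compared per kilobase of annotated exon in the 7 Ctrl mice. Pla2g7 was highest with 34.5 ± 5.30 normalized CPM per kb, followed by Pla2g15 with 6.32 ± 1.23, Pla2g16 with 4.40 ± 1.04 and Pla2g6 with 2.94 ± 0.605. Pla2g12a with 1.29 ± 0.246, Pla2g5 with 1.12 ± 0.379, Pla2g4a with 0.555 ± 0.150 and Pla2g4b with 0.108 ± 0.0469 were lowest. The neighbours in this order from Pla2g15 to Pla2g16, from Pla2g16 to Pla2g6 and from Pla2g12a to Pla2g5 lay within the sum of their SDs. The reads were taken as full-length transcripts, for which counts need not grow with length, so this order depends on the scaling per kb.

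The annotation around Pla2g5 holds a cluster of secreted phospholipase A2 genes. Within 250 kb of the gene body, 13 annotated genes were entries of the table and 4 had enough reads to be tested, Pla2g2d, Nbl1, Tmco4 and Minos1. The neighbouring family members Pla2g2c, Pla2g2e and Pla2g2f had 0 to 9 reads per mouse and were not tested, and the other genes without a test were Htr6, Rnf186, Otud3, Gm13030, Ubxn10 and Vwa5b1. Pla2g2d, whose enzyme is made by dendritic cells of lymphoid tissue, had 1 to 22 reads per mouse, with log2 fold changes of 0.52 under saline (SE 0.631, adjusted p 0.597) and 0.45 under morphine (SE 0.525, adjusted p 0.636). Tmco4, a transmembrane protein gene that starts at -109.4 kb, upstream of the Pla2g5 start, rose under saline (1.32, SE 0.448, adjusted p 0.0447) and did not pass under morphine (1.17, SE 0.416, adjusted p 0.0843). Nbl1 (0.33 and 0.08) and Minos1 (0.04 and 0.00) did not pass under saline or morphine.

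The genes whose log2 level was most like that of Pla2g5 over the 16 mice, among 9760 annotated genes with a mean of at least 50 counts, were Rpl23a (Pearson r 0.979), Psat1 (0.962), Sord (0.957), Akr1a1 (0.953) and Atf3 (0.951). The mice share their virus and treatment groups, and this likeness is a description. Psat1 encodes an enzyme of serine synthesis, Atf3 a stress-induced transcription factor, Sord and Akr1a1 enzymes of sugar alcohol and aldehyde metabolism, and Rpl23a a ribosomal protein whose reads can be shared with pseudogene copies. After the mean of each group was subtracted, the highest were Rpl23a (0.890), Tmed1 (0.876), Zfp280c (0.871), Fuca1 (0.858) and Cgnl1 (0.846). Among the members, Pla2g4a had an r with Pla2g5 of 0.779 over the 16 mice, Pla2g7 0.666, Pla2g16 0.628, Pla2g15 0.514, Pla2g6 0.349 and Pla2g12a 0.113. After the group means were subtracted the r was 0.801 for Pla2g4a, 0.692 for Pla2g16 and -0.157 to 0.446 for the other 4.

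Markers of several cell types differed with the virus beside these genes. The tissue held the neuronal markers of cortex, with the sum of 5 excitatory neuron markers at 997 to 1550 normalized CPM in the Ctrl mice (group medians 1100 under saline and 1190 under morphine) and 695 to 1470 in the Kdm7a-shRNA mice (761 and 894). On average over both treatments all 5 had a fold change below 0 on the log2 scale, with a median of -0.40, and none passed. The sum of 5 microglial markers, Cx3cr1, P2ry12, Tmem119, Csf1r and C1qa, was 479 to 580 in Ctrl + Saline, 273 to 510 in Ctrl + Morphine, 709 to 2050 in Kdm7a-shRNA + Saline and 482 to 1870 in Kdm7a-shRNA + Morphine. Of the 5, 4 passed as higher with knockdown under saline and 2 under morphine, beside 7.43% and 2.86% of all tested genes. None of the 5 was at 0 in any mouse.

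Pla2g7 and Pla2g4a were highest in the mice with the most microglial markers. Replicate 3 of Kdm7a-shRNA + Saline, with a microglial sum of 2050, had the highest Pla2g5 (28), Pla2g4a (9.48) and Pla2g7 (260) of all mice, and replicate 3 of Kdm7a-shRNA + Morphine, with 1870, had the next highest Pla2g5 (26.6), Pla2g4a (8.25) and Pla2g7 (191). The part of microglial RNA in the levels of Pla2g5, Pla2g4a and Pla2g7 was not tested. Replicate 4 of Kdm7a-shRNA + Morphine had a microglial sum of 482, within the Ctrl range of 273 to 580, and a Pla2g5 level of 11.7, above the highest Ctrl mouse at 5.15. That mouse was the lowest of its group in both. The correlation of Pla2g5 with the microglial sum was r = 0.814 over the 16 mice and 0.556 after the group means were subtracted, a description in which both values of a mouse come from 1 library. Among the sums of other cell types, that of inhibitory neuron markers had an r of -0.865 over the 16 mice. After the group means were subtracted, r was 0.77 for the mural cell, 0.732 for the oligodendrocyte and 0.704 for the endothelial sum. It was 0.672 for the T cell and 0.638 for the macrophage sum, all above the microglial value. The T cell and macrophage sums were low, at 1.83 to 8.89 and 3.71 to 16.9 normalized CPM, beside 273 to 2050 for the microglial sum. Differences among these r were not tested.

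**Figure D4:**
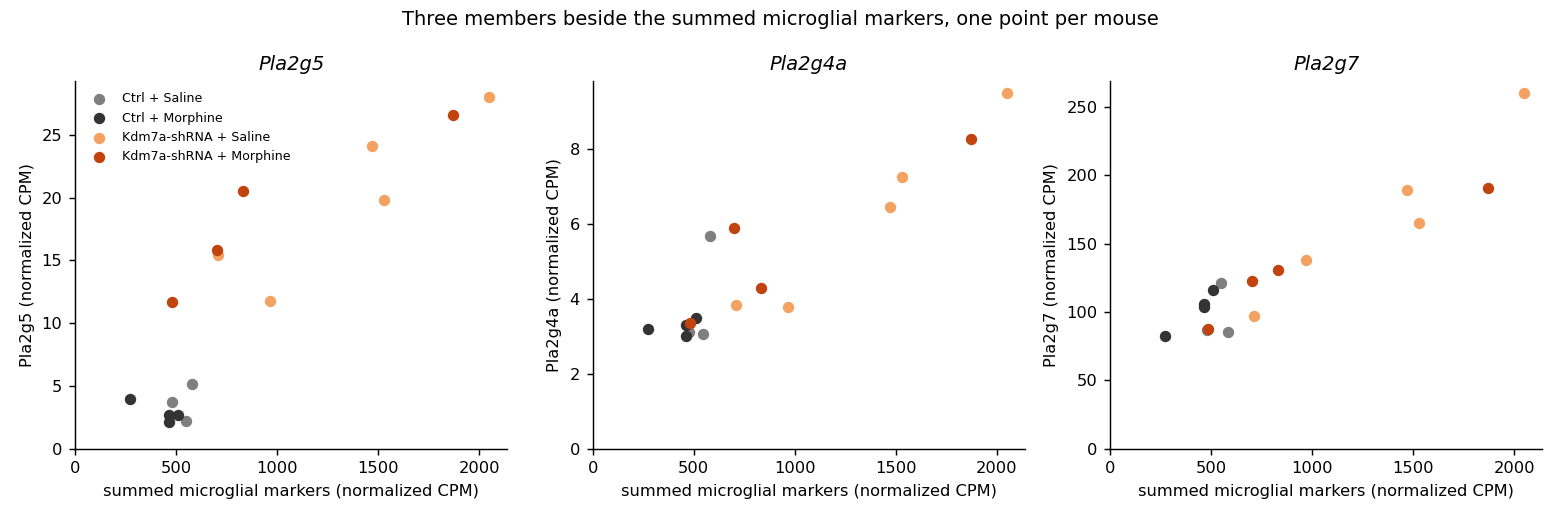
Normalized CPM of Pla2g5, Pla2g4a and Pla2g7 (vertical axes) against the summed normalized CPM of 5 microglial markers (horizontal axis), 1 point per mouse, coloured by group. The Ctrl mice lie at sums of 273 to 580, and the 2 mice at 2050 and 1870 are highest for all 3 genes, and the Pla2g5 levels of the Kdm7a-shRNA mice, 11.7 to 28, lie above those of the Ctrl mice, up to 5.15.

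With knockdown under saline, 3 of 5 endothelial, 2 of 6 astrocyte, 1 of 3 oligodendrocyte precursor and 1 of 5 meningeal fibroblast markers passed as higher, and of 6 inhibitory neuron markers 3 passed as lower and 2 as higher. Under morphine 1 endothelial marker was higher and 1 inhibitory neuron marker was lower and 1 higher. Of all tested genes, 7.43% passed as higher and 9.31% as lower under saline, and 2.86% and 4.83% under morphine. None of the 5 oligodendrocyte, 5 mural cell, 5 tested macrophage, 3 tested T cell and 2 tested neutrophil markers passed under either treatment. The endothelial sum was 122 to 162 in the Ctrl mice and 147 to 269 in the Kdm7a-shRNA mice, and the oligodendrocyte sum 6770 to 12500 and 8080 to 19100. Of the 6 astrocyte markers, 4 had a log2 fold change above 0 under saline and 2 below. The astrocyte sum was 8720 to 11000 in Ctrl + Saline and 8120 to 9800 in Kdm7a-shRNA + Saline. Under morphine it was 6980 to 8510 and 7820 to 9640. Their part in the member levels was not tested.

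Other genes of the pathway were taken from lists. Of 17 other tested genes with phospholipase A2 or related activity, 1 passed under morphine and 1 under saline, beside 7.69% and 16.7% of all tested genes. Prdx6, a peroxiredoxin that also has phospholipase A2 activity, rose under morphine from 274 ± 44.1 to 500 ± 221 normalized CPM (log2 fold change 0.87, SE 0.262, adjusted p 0.0454). The groups overlapped there, at 232 to 328 in Ctrl + Morphine and 310 to 818 in Kdm7a-shRNA + Morphine. Under saline the log2 fold change of Prdx6 was 0.77 (SE 0.276, adjusted p 0.0550). Pla2g3, a further secreted enzyme, was lower under saline (-1.72, SE 0.587, adjusted p 0.0465) at 0 to 21 reads per mouse and with overlapping groups, and it differed by -0.24 under morphine. The median log2 fold change of the 17 was 0.22 under saline and 0.08 under morphine. On average over both treatments 3 of the 17 passed, all higher, beside 7.68% of all tested genes that passed as higher.

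Of 30 tested enzymes that activate and recycle fatty acids or act on lysophospholipids, 4 passed as higher under saline and 1 under morphine, with medians of 0.23 and 0.06. Of all tested genes, 7.43% passed as higher under saline and 2.86% under morphine. Averaged over both treatments, 3 of the 30 passed as higher, beside 7.68% of all tested genes. Lpcat1 (0.93, SE 0.216, adjusted p 0.00706) and Lpcat2 (1.44, SE 0.458, adjusted p 0.0339), which put a fatty acid back on lysophosphatidylcholine, rose under saline, as did Abhd12 (0.83, SE 0.172, adjusted p 0.00392), a lipase of lysophosphatidylserine. Gde1, a glycerophosphodiester phosphodiesterase, rose under saline (1.71, SE 0.279, adjusted p 0.000858) and differed by -0.31 under morphine (adjusted p 0.469). Abhd4, a lipase in the synthesis of N-acylethanolamines, rose under morphine (0.90, SE 0.264, adjusted p 0.0402).

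Of 28 tested genes of eicosanoid synthesis and breakdown, 4 passed as higher and 3 as lower under saline, and 5 as higher and 1 as lower under morphine, with medians of 0.44 and 0.30. Of all tested genes 9.31% passed as lower under saline and 4.83% under morphine, beside the 7.43% and 2.86% that were higher. Averaged over both treatments, 9 of the 28 passed as higher and 2 as lower, beside 7.68% and 9.93% of all tested genes. Tbxas1, thromboxane synthase, rose under saline (1.80, SE 0.477, adjusted p 0.0143) and under morphine (1.72, SE 0.448, adjusted p 0.0236). The lipoxygenase gene Alox8 fell under saline (-1.88, SE 0.332, adjusted p 0.00141) and under morphine (-1.35, SE 0.333, adjusted p 0.0188), at group means of 3.34 and 2.74 normalized CPM in the Ctrl mice and 0.894 and 1.07 in the knockdown mice. Ptges3, a prostaglandin E synthase that is also a chaperone partner (1.09, adjusted p 0.00471), and Cyp4f13, a fatty acid hydroxylase (1.35, adjusted p 0.0237), rose under saline, while Mgst3, a microsomal glutathione transferase (-0.60, adjusted p 0.00934), and Alox12b, another lipoxygenase (-1.37, adjusted p 0.0172), fell.

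Of 25 listed receptors of lipid mediators, 9 had enough reads, and 2 passed under saline and 1 under morphine, all higher, where 7.43% and 2.86% of all tested genes did. Gpr34, a lysophosphatidylserine receptor known from microglia, rose under saline (1.21, SE 0.401, adjusted p 0.0410) and under morphine (1.83, SE 0.393, adjusted p 0.00997). Its groups overlapped under saline, at 9.65 to 20.1 normalized CPM in Ctrl + Saline and 19.8 to 49 in Kdm7a-shRNA + Saline. Lpar5, a lysophosphatidic acid receptor, passed under saline (2.12, SE 0.718, adjusted p 0.0448) with overlapping groups, at 0 to 0.661 normalized CPM in Ctrl + Saline and 0.346 to 2.13 in Kdm7a-shRNA + Saline. At 0 to 5 reads in each Ctrl + Saline mouse, it entered the test through its level in other groups. The median of the 9 was 0.92 under saline and 0.58 under morphine. Averaged over both treatments, 4 of the 9 passed, all higher, beside 7.68% of all tested genes that passed as higher.

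Of 31 tested other phospholipases and lipases, 4 passed as higher under saline and 1 under morphine, beside 7.43% and 2.86% of all tested genes, with medians of 0.29 and 0.30. Averaged over both treatments, 7 of the 31 passed, all higher, beside 7.68% of all tested genes that passed as higher. Lpl, lipoprotein lipase, rose in both treatments, from 5.37 ± 2.15 to 22.5 ± 9.99 normalized CPM under saline (2.07, SE 0.465, adjusted p 0.00595) and from 4.02 ± 0.845 to 19.7 ± 14.5 under morphine (2.31, SE 0.439, adjusted p 0.00554). Plcg2, a phospholipase C of immune cells (1.74, adjusted p 0.0176), Dagla, which makes the endocannabinoid 2-arachidonoylglycerol (0.74, adjusted p 0.00888), and Gpld1, a phospholipase D that releases anchored proteins (0.92, adjusted p 0.0321), rose under saline. Gpr34, Tbxas1, Plcg2 and Lpl are expressed by microglia, whose markers were higher in the same mice, and the part of this in their rise was not tested.

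**Figure D5:**
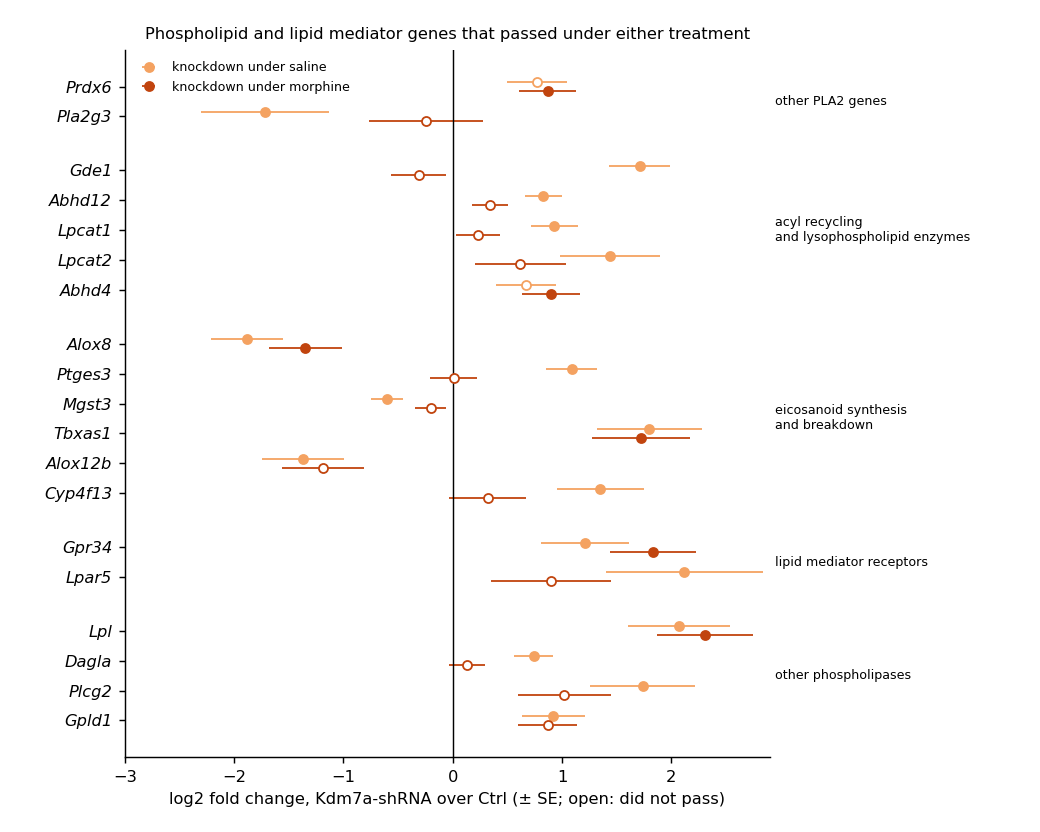
Log2 fold change of Kdm7a-shRNA over Ctrl mice (horizontal axis, ± SE) under saline and under morphine for the genes of the 5 lists that passed under either treatment, up to 6 a list, filled where the gene passed. Tbxas1, Gpr34 and Lpl are filled and higher in both treatments, Alox8 is filled and lower in both, and Gde1 is higher under saline alone, at 1.71 beside -0.31.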

How the data were processed

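RNA of the mPFC of 16 mice was sequenced on a Nanopore PromethION after cDNA-PCR library preparation. The authors removed short, low-quality and ribosomal reads, and clustered full-length reads on mm10 with minimap2 and Pinfish. The submitters' notes name edgeR 3.8.6. The deposited counts per gene are not normalized. The deposited CPM values divide each count by its column's total, within 4.99e-06, and were used for that check alone.

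Counts were analysed here with edgeR 4.0.16 in R 4.3.3, with filterByExpr, TMM factors and 1 coefficient per group. P-values of the quasi-likelihood test were adjusted by Benjamini-Hochberg over 18826 genes. SEs were taken from the F statistic as the size of the log2 fold change over its root. The code was tested on simulated data. Positions are from GENCODE vM21 (GRCm38) and promoter windows from RefSeq (GRCm38.p6).

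The members, lists and tests were chosen with earlier results of these data known. 1 marker gene is not reported here and was left out of its sum. Named genes were the members, Kdm7a, Jmjd7, list genes that passed with knockdown under either treatment (up to 6 a list by adjusted p), table genes within 250 kb of Pla2g5, and the 5 genes most correlated with Pla2g5 over all mice and within groups. Alternatives were RLE factors, library size only, no filter, a mean CPM of at least 1, annotated genes only, the compared groups alone, DESeq2 1.42.0, a replicate block, the adjusted p alone, and each mouse left out. Replicate numbers in different groups mark different mice. Mice of a group differed by more than counting error (chi-square per degree of freedom 8.33 to 51.2 over 25 pairs).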

Additional observations from a re-analysis of the deposited data

Results flagged for a closer look

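Of 27 groups of 4 or 5 mice in which the 8 members and Kdm7a were examined for a mouse far from the others, 1 held such a mouse, and about 1 in 20 would by chance. Pla2g15 was 32.1 normalized CPM in replicate 3 of Kdm7a-shRNA + Saline, and the other 4 mice of the group were at 20.9 to 24. That mouse also had the highest summed microglial markers, 2050 normalized CPM. Without it the log2 fold change of Pla2g15 under saline was 0.31 (SE 0.246, adjusted p 0.418, edgeR), beside 0.42 with it.

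Among the list genes named above, the knockdown effect on Gde1 differed between the treatments, by -2.03 on the log2 scale (SE 0.371, adjusted p 0.0472, edgeR's quasi-likelihood test of the difference). Its normalized CPM was 21.7 to 32.9 in Ctrl + Saline, 44.2 to 77.8 in Ctrl + Morphine, 73.5 to 93.9 in Kdm7a-shRNA + Saline and 36.9 to 86.8 in Kdm7a-shRNA + Morphine. The number of genes that passed in that difference was 16, and it ranged from 0 to 266 when 1 mouse was left out.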

How the results depend on the processing

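Pla2g5 kept its direction and its call under saline in every alternative and with every mouse left out. Under morphine, where it was chosen, its values are a description. Its log2 fold change over the alternatives was 2.59 to 2.72 under morphine and 2.28 to 2.51 under saline, and 0.16 to 0.32 for the difference of the knockdown effects, which was 0.05 to 0.57 with 1 mouse left out. The number of other members that passed under saline, 1, was 0 with library size only, with annotated genes only and with the compared groups alone, and 0 to 1 with 1 mouse left out. The number averaged over both treatments, 2, was 0 with library size only and with annotated genes only, 1 with a mean CPM of at least 1, and 0 to 2 with 1 mouse left out. The cause was not tested. Pla2g15 under morphine reversed to -0.08 without replicate 3 of Kdm7a-shRNA + Morphine and was -0.08 to 0.38 over all mice left out. No other member changed direction in these fits, and the counts of members other than Pla2g5 that passed with knockdown under morphine, with morphine under either virus and in the difference stayed at 0.

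Library size only shifted the median of all genes by -0.11 under morphine and -0.12 under saline, and the share of higher among passing genes from 37.2% to 24% and from 44.4% to 29.2%. With annotated genes only 446 and 1419 genes passed, 60.1% and 61.7% of them higher, in place of 1448 and 3151, and 1456 in place of 3316 passed on average, 71.6% of them higher beside 43.6%. The compared groups alone gave 685 under morphine, and the adjusted p alone 5190 on average. DESeq2 called 217 genes in the difference, 20 with morphine under the Kdm7a-shRNA virus and 185 under the control virus, in place of 16, 1 and 0, edgeR without replicate 1 of Ctrl + Saline called 230 under the control virus, and no filter gave 34 in the difference.

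Mice of different groups with the same replicate number share that number in the labels, which do not say whether they were processed together. Over 21 such pairs the correlation of deviations from the group mean was -0.102 to 0.395, and over 74 pairs with other numbers -0.474 to 0.318. With the replicate block Pla2g5 was 2.68 under morphine, 2.51 under saline and 0.16 in the difference, 1 and 2 other members passed under saline and on average, and 6 genes passed in the difference. Pla2g4b, with 1 to 10 reads per mouse, was below the depth that a test needs, and without a filter its log2 fold change was -0.59 under morphine and 0.00 under saline (adjusted p 0.558 and 1).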

Other observations

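Pla2g4e, a cytosolic enzyme that makes N-acylphosphatidylethanolamines, was singled out after its values were seen. Its normalized CPM was 2.41 ± 0.833 in Ctrl + Saline (SD, n = 3), 4.60 ± 0.961 in Ctrl + Morphine (n = 4), 2.66 ± 0.965 in Kdm7a-shRNA + Saline (n = 5) and 4.17 ± 0.502 in Kdm7a-shRNA + Morphine (n = 4). The log2 difference with morphine was 0.95 under the control virus (SE 0.311, adjusted p 0.235, edgeR), where the groups did not overlap, and 0.65 under the Kdm7a-shRNA virus (SE 0.266, adjusted p 0.700), where they did. Of all tested genes, 7.04% were higher without overlap with morphine under the control virus. Pla2g4e did not pass in either comparison.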
